A study of Mus musculus with 11 samples.

Results

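The cyclin-dependent kinase (CDK) inhibitor genes Cdkn1a, Cdkn1b, Cdkn1c, Cdkn2a and Cdkn2b were followed across 8 ChIP-seq peak lists of mouse muscle satellite cells, the stem cells of skeletal muscle. Their members were all peaks that touch 4 fixed stretches of the mm9 genome. Cdkn2a and Cdkn2b lie next to each other and share the window chr4:88910000-88967000, Cdkn1a lies in chr17:29215000-29246000, Cdkn1b in chr6:134860000-134886000 and Cdkn1c in chr7:150634000-150657000. Of 212879 peaks in all lists, 79 were members, 38 of them H3K4me3, 37 H3K27me3 and 4 H3K36me3.

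The cells came from C57BL/6 male mice and were sorted as VCAM+ and negative for CD31, CD45 and Sca1, which set aside endothelial, blood and many other mesenchymal cells. Quiescent satellite cells (QSCs) were from young mice of 2 to 3 months or old mice of 22 to 24 months, and young activated satellite cells (ASCs) were, per the labels, sorted young QSCs that were then kept in culture for 3 days in serum, whereas the text of the study speaks of activation after muscle injury. H3K4me3, H3K27me3 and H3K36me3 were profiled in young QSCs and young ASCs, and H3K4me3 and H3K27me3 in old QSCs. Each cell state and mark had 1 library, so no value below has a replicate error, no test between cell states was possible, and age or activation cannot be told apart from differences between libraries. The lists held from 11658 peaks (young QSC H3K27me3) to 42880 peaks (young ASC H3K36me3). From young QSCs to ASCs the whole lists covered 1.32 times the length in H3K4me3, 2.29 times in H3K27me3 and 2.41 times in H3K36me3. In old QSCs they covered 1.05 times the young length in H3K4me3 and 0.789 times in H3K27me3. The old QSC H3K27me3 list held more peaks than the young one (17635 against 11658), but narrower ones (median 838 against 1228 bp). The study reports an increase of H3K27me3 with age, by normalized tag intensity near transcription starts and by additional peaks between genes. It also states that the mark became less broad at some of the genes that carried it. Its tag intensity is not the covered length used here. The number of reads is unknown, and each peak's score, which is higher for a smaller p-value, was ranked only within its own list.

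CDK inhibitors stop the cell cycle by binding the kinases that drive it. The Cip/Kip proteins p21 (Cdkn1a), p27 (Cdkn1b) and p57 (Cdkn1c) bind several cyclin-CDK complexes, and the INK4 proteins p16 (from Cdkn2a) and p15 (Cdkn2b) bind CDK4 and CDK6. A further start of Cdkn2a gives Arf, a protein that stabilises p53, and p53 in turn activates Cdkn1a. H3K4me3 is laid down around active or poised transcription starts, H3K27me3 is the mark of Polycomb repression, and H3K36me3 accumulates over the bodies of transcribed genes. Cdkn2a and Cdkn2b are classic Polycomb targets, and Cdkn1c is an imprinted gene.

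The promoters of these genes differ in their content of CpG, the dinucleotide that is dense where H3K4me3 and Polycomb marks are commonly found, so the 250 bases before each start are shown. RefSeq (GRCm38.p6) had 6 entries for 4 of the 5 genes. They are printed 5′ to 3′ along the gene with each CpG in capitals, and their coordinates are of that build and not of the build of the peaks.
Cdkn1a, first start, chr17:29090729-29090978, plus strand: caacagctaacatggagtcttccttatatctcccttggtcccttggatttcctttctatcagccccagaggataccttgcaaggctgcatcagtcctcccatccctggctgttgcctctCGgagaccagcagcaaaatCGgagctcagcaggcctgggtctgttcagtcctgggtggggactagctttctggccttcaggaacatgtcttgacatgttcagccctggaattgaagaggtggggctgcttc
Cdkn1a, second start, chr17:29093519-29093768, plus strand: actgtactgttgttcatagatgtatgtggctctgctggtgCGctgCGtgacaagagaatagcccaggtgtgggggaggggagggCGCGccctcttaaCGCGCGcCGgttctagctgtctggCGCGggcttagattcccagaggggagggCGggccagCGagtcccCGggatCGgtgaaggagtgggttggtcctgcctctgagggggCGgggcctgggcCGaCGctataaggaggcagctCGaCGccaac
Cdkn1b, chr6:134920151-134920400, plus strand: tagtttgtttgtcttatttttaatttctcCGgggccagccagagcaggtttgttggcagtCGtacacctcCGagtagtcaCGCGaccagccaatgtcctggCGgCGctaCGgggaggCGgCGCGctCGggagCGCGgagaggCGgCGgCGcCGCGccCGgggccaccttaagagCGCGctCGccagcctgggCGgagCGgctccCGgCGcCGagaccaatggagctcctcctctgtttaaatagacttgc
Cdkn2a, first (upstream) start, chr4:89294620-89294869, minus strand: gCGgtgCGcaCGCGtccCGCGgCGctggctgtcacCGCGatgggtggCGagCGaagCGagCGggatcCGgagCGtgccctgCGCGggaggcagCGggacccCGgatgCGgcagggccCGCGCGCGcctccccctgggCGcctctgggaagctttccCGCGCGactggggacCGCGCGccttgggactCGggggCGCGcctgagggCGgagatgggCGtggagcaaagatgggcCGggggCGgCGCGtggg
Cdkn2a, second start, chr4:89282193-89282442, minus strand: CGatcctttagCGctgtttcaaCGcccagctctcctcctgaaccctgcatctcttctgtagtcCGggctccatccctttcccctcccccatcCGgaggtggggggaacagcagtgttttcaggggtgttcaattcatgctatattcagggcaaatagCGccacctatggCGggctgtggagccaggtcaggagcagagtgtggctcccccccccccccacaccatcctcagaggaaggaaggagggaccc
Cdkn2b, chr4:89311033-89311282, minus strand: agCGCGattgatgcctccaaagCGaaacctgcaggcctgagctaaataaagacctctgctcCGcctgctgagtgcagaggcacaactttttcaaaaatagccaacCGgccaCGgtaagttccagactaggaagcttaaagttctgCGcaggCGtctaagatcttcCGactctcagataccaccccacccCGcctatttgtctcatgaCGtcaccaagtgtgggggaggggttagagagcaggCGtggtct

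These stretches held between 2 and 40 CpGs. The CpG count was 40 at the upstream Cdkn2a start and 28 at Cdkn1b, where the observed over expected CpG ratio was 1.08 in each, a ratio reached by 2.79% and 2.59% of the 32841 promoters in the table. The ratio was 0.771 at the second Cdkn1a start, 0.670 at Cdkn2b, 0.316 at the second Cdkn2a start and 0.110 at the first Cdkn1a start, against a median of 0.374 over all promoters. The starts of 1 gene thus differed widely, and 83.7% of promoters had a ratio at least that of the first Cdkn1a start. Motifs were searched on both strands. The letters GGGCGG were found 2 times at the second Cdkn1a start, 1 time at Cdkn1b and 2 times at the upstream Cdkn2a start (32.7% of all promoters held them), CCAAT was found 2 times, at Cdkn1b only (33.9%), and neither TATAAA (12.4%) nor the E-box CAGCTG (13.0%) was found in any of the 6. The first Cdkn1a start, which is poor in CpG, held CATG 2 times with 6 bases between, a spacing that occurs in p53 response elements, from position -48 to -35 before the start, as did 0.490% of all promoters. In its setting the match reads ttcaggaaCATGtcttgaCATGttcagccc, here with the 2 CATG cores in capitals.

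H3K4me3 was present in all 4 windows in all 3 cell states, while the other marks differed between windows. H3K27me3 was called in the window shared by Cdkn2a and Cdkn2b and in the Cdkn1c window in all 3 cell states, and was absent from the Cdkn1b window in every list. At Cdkn1a it appeared only as 1 weak peak of old QSCs. H3K36me3 was called at Cdkn1a in young QSCs and ASCs and, in ASCs, at 1 place in the Cdkn2a and Cdkn2b window. Of the member H3K4me3 peaks, 5 of 12 in young QSCs, 5 of 16 in ASCs and 5 of 10 in old QSCs overlapped H3K27me3 of the same cells. Over all H3K4me3 peaks of those lists the shares were 14.0%, 16.9% and 28.6%. Of the member H3K27me3 peaks, 5 of 11, 5 of 16 and 5 of 10 overlapped H3K4me3, where the lists had 27.7%, 13.9% and 41.3%. A score of 3100, at which many peaks of these lists tie below a highest score of 3233, was reached by 4 of 12, 5 of 16 and 5 of 10 member H3K4me3 peaks, beside 14.3%, 31.6% and 23.3% of all.

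**Figure D1:**
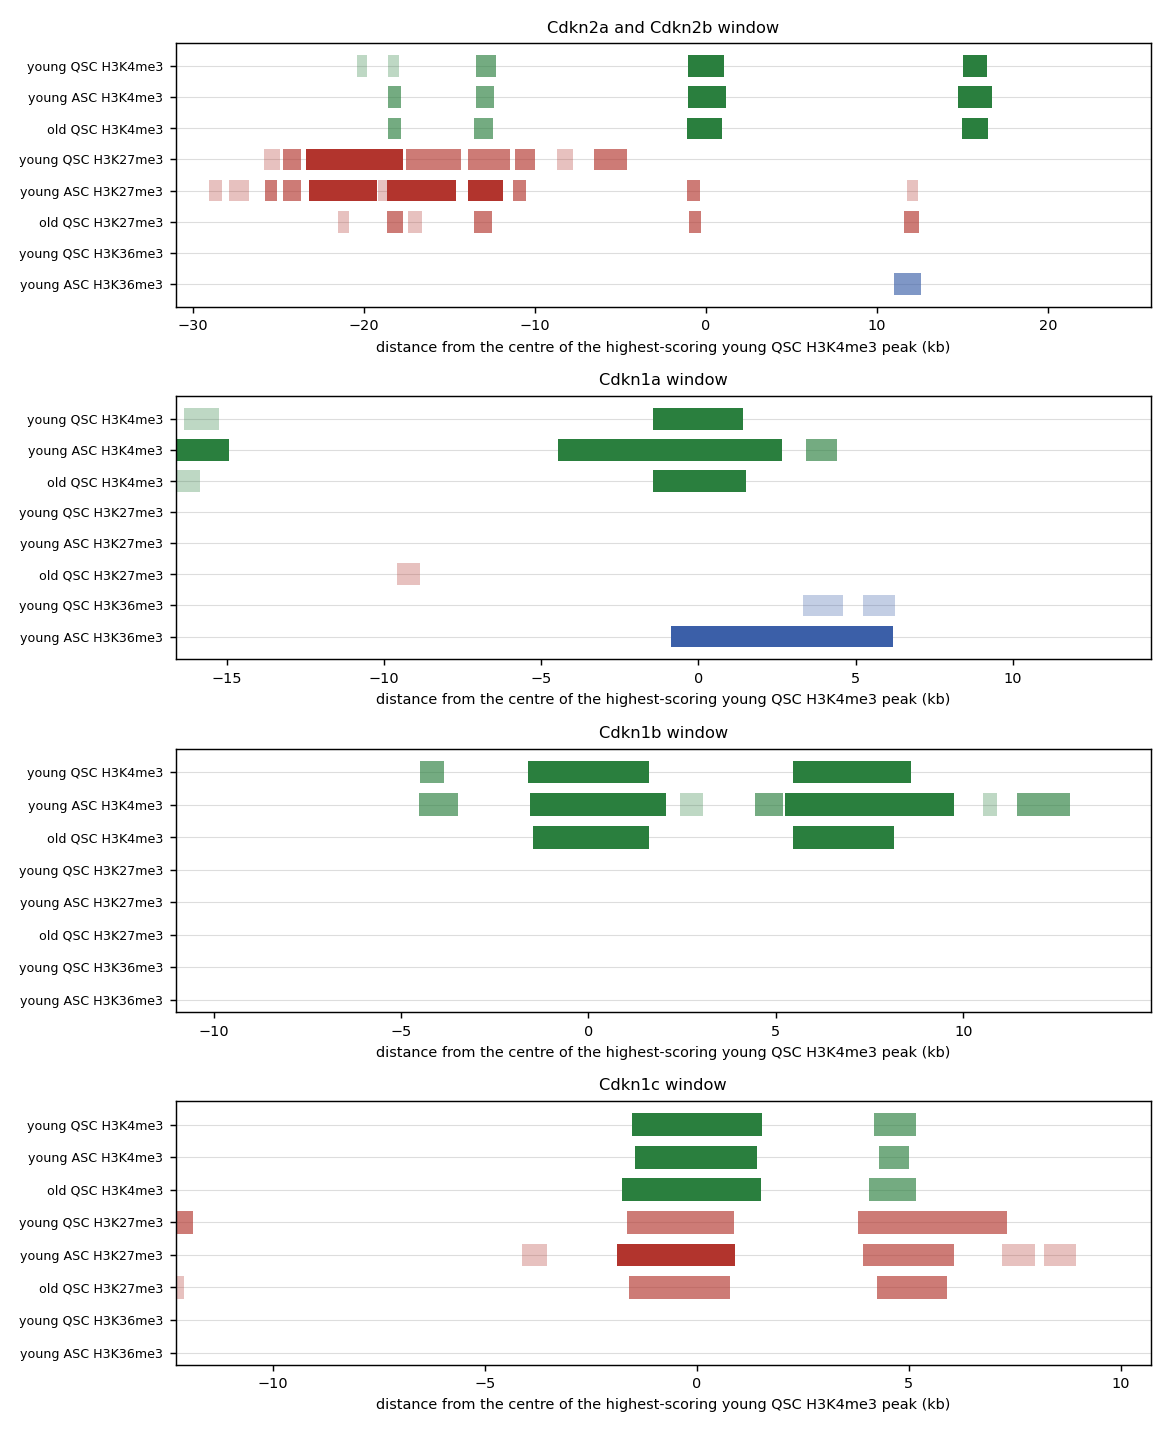
Peaks in the 4 windows by list. The x axis is the distance in kb from the centre of the highest-scoring young QSC H3K4me3 peak (the widest where scores tie), cut at the window limits, and each bar is a peak, dark for a score of at least 1000, medium from 100 and light below 100. H3K36me3 of old QSCs was not analysed here. The Cdkn2a and Cdkn2b window holds a run of H3K27me3 bars in young QSCs and ASCs that is reduced to 6 short bars in old QSCs, and Cdkn1a and Cdkn1b hold wide H3K4me3 bars with almost no H3K27me3.

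In the window of the INK4 genes Cdkn2a and Cdkn2b, H3K27me3 covered 17380 bp in young QSCs (8 peaks), 16508 bp in young ASCs (11 peaks) and 5012 bp in old QSCs (6 peaks). The young QSC and ASC lengths were close to each other, with a ratio of 0.950, whereas the whole ASC list covered 2.29 times the young QSC length. With the lists trimmed by score to equal size, 3 ASC peaks were left and the ratio was 0.581. The old QSC length was 3.47-fold smaller than the young one, against 1.27-fold over the whole lists. H3K4me3 in the same window hardly differed, at 5973 bp in young QSCs, 6015 bp in ASCs and 5388 bp in old QSCs. When every chromosome was divided into consecutive stretches as long as this window, 0.518% of them held at least as much young QSC H3K27me3, 1.33% at least as much in ASCs and 0.809% at least as much in old QSCs. The window was therefore among the more heavily covered ones of each list, old QSCs included. Of such stretches with H3K4me3, 25.2% also held H3K27me3 in young QSCs, 44.5% in ASCs and 47.2% in old QSCs.

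The young QSC H3K27me3 lay on the low-coordinate side of the window, between 88915179 and 88936361. Its widest peak, chr4:88917583-88923260, was 5678 bp long with a score of 2136, a width reached by 3.65% and a score reached by 1.81% of that list. With peaks less than 1 kb apart joined, 6 of the 8 formed a block of 15842 bp, and 2.04% of the 8154 joined blocks of the list were as wide. In ASCs the block was 18506 bp long and made of 9 peaks, and 0.697% of 26814 blocks were as wide. The broad domain thus lay at nearly the same place in both young cell states, and in ASCs the 3 peaks left by the trimming all lay within it. The old QSC list held no block of such width in this window. Its widest joined block here was 2036 bp, made of 2 peaks, and 6.78% of its 16350 blocks were as wide. The widest single old QSC peak here was 1068 bp (chr4:88927422-88928489, score 326), and the highest score was 400 (chr4:88922341-88923264, 924 bp). Within the old QSC list, 26.2% of peaks reached the width of 1068 bp, 7.80% the score of 326 and 5.74% the score of 400.

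Bases of the young domain were found again in old QSCs more often under H3K4me3 than outside it. In the Cdkn2a and Cdkn2b window, 2395 bp of young QSC H3K27me3 were also under young QSC H3K4me3, and 67.2% of these (1610 bp) were H3K27me3 in old QSCs. Of the other 14985 bp, 12.4% (1852 bp) were. The whole lists showed a like difference, with 77.2% under H3K4me3 and 10.8% outside it, so the window was close to the background in this respect. In ASCs the shares were 100% and 69.8% in the window and 93.9% and 69.3% in the whole list. In all, 50.7% of old QSC H3K27me3 in the window was also H3K4me3, against 13.8% in young QSCs and 15.1% in ASCs, and the whole lists gave 45.8%, 20.7% and 12.9%.

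**Figure D2:**
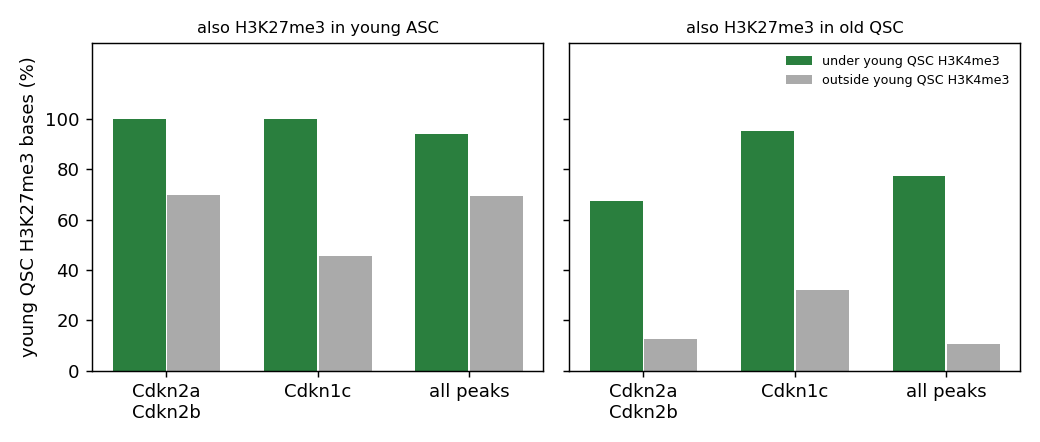
Share of young QSC H3K27me3 bases, in percent on the y axis, that were also H3K27me3 in young ASCs (left) or old QSCs (right), for bases under young QSC H3K4me3 (green) and outside it (grey), in the windows of Cdkn2a and Cdkn2b, of Cdkn1c and over all peaks. In old QSCs the grey bars stand at 12.4%, 31.9% and 10.8%, each below the green bar beside it.

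Of the 5 H3K4me3 sites of this window, 4 were called in all 3 cell states. By order along the chromosome, the RefSeq table lists Mtap, Cdkn2a, the predicted gene Gm12610, Cdkn2b and Dmrta1, but peaks could not be placed on single starts because those positions belong to another build. The site at chr4:88956005-88957446, the one farthest toward the Cdkn2b and Dmrta1 side, was 1442 bp wide in young QSCs, 1984 bp in ASCs and 1495 bp in old QSCs, and it did not meet H3K27me3 in any of them. The site at chr4:88927547-88928713 was 1167, 1067 and 1096 bp wide and had 100%, 100% and 95.5% of its length in H3K27me3. A narrow site at chr4:88922374-88923040, of 667, 768 and 783 bp, lay wholly inside H3K27me3 in all 3. The fifth site, chr4:88920594-88921154, was called in young QSCs alone with a score of 51.0, close to the lowest in the list, and lay wholly inside H3K27me3 too. Marked and unmarked H3K4me3 thus stood side by side within 1 window.

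The remaining site combined the marks in a way that differed between lists. At chr4:88939929-88942064 the H3K4me3 peak had a score of 3100 in all 3 cell states and widths of 2136 bp in young QSCs, 2196 bp in ASCs and 2014 bp in old QSCs. Young QSCs had no H3K27me3 there. ASCs had a peak of 727 bp with a score of 103 and old QSCs one of 712 bp with a score of 107, and both lay at the low-coordinate end of the H3K4me3 peak. These covered 30.2% and 35.4% of the H3K4me3 length. Of the 17991 young QSC H3K4me3 sites called in all 3 states, 4.13% had this pattern of H3K27me3 in ASCs and old QSCs but not in young QSCs. A 2nd place with H3K27me3 in ASCs and old QSCs only lay at chr4:88952744-88953377 (634 bp, score 66.7) and chr4:88952608-88953441 (834 bp, score 210), apart from H3K4me3. There the ASC list also held an H3K36me3 peak, chr4:88951995-88953587, of 1593 bp and score 269, which contained the whole ASC H3K27me3 peak. Only 2.13% of ASC H3K27me3 peaks overlapped H3K36me3. With the H3K27me3 lists trimmed by score to equal size, the ASC H3K27me3 peaks at both places were lost and the old QSC peaks were still called, so the presence of H3K27me3 in ASCs at these places depends on the length of the list.

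Cdkn1c, the gene of p57, had the other window with H3K27me3 in all 3 cell states, and here the marks lay over each other. H3K27me3 covered 6459 bp of the window in young QSCs (3 peaks), 7084 bp in ASCs (5 peaks) and 4215 bp in old QSCs (3 peaks). With the lists trimmed by score to equal size, 2 ASC peaks of 4951 bp were left. The ASC length was then 0.767 times the young QSC length, beside 1.10 with the lists as deposited. The old QSC length was 0.653 times the young one, a smaller difference than at Cdkn2a and Cdkn2b, where the ratio was 0.288. H3K4me3 covered 4071 bp, 3603 bp and 4358 bp. Of these H3K4me3 bases, 83.4%, 85.8% and 75.6% were also H3K27me3, against 11.9%, 12.8% and 19.7% over the whole lists. Stretches of the same length covered at least as much by old QSC H3K27me3 made up 0.283% of all. Of those with H3K4me3, 19.7% also held H3K27me3 in young QSCs, 32.1% in ASCs and 36.5% in old QSCs.

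Both H3K4me3 sites of the Cdkn1c window carried H3K27me3 in every list, a pattern of 14.4% of the sites called in all 3 states. The wider site, chr7:150644755-150647840 in young QSCs, was 3086 bp wide there, 2884 bp in ASCs and 3263 bp in old QSCs. Its H3K27me3 peak was 2517 bp with a score of 315 in young QSCs, 2796 bp with a score of 3100 in ASCs and 2385 bp with a score of 140 in old QSCs. These scores were reached by 20.1%, 3.04% and 27.4% of their own lists. In old QSCs 1.79% of the list reached the width of this peak. The narrower site, chr7:150650486-150651470, was 985, 719 and 1095 bp wide and had 100%, 100% and 83.2% of its length in H3K27me3. Under H3K4me3, 95.3% of the young QSC H3K27me3 of this window was also called in old QSCs, and outside it 31.9%. H3K36me3 was not called in the window, and the table lists 4933417O13Rik and then Kcnq1ot1, an imprinted noncoding RNA, on the low side of Cdkn1c and Gm33663 and then Slc22a18 on the high side.

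The lower limit of the Cdkn1c window ran through H3K27me3. The young QSC peak chr7:150630840-150634411 (3572 bp, score 951) crossed it and counted as a member. The ASC peak at the same place, chr7:150630105-150633590 (3486 bp, score 3100), ended 410 bp before the limit and was no member. In old QSCs a peak of 575 bp and score 52.3 crossed the limit, and one of 1613 bp and score 634 lay outside. H3K4me3 of 1363, 1154 and 1311 bp stood there in young QSCs, ASCs and old QSCs, also outside.

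Cdkn1a, the gene of p21, differed from the genes above in ASCs, where H3K36me3 overlapped a wide H3K4me3 peak. In young and old QSCs its main H3K4me3 site was narrower than that of Cdkn1c. H3K4me3 covered 3984 bp of its window in young QSCs, 9814 bp in ASCs and 3747 bp in old QSCs. The ASC length was 2.46 times the young QSC length, against 1.32 over the whole lists, and 0.338% of stretches of this length held as much H3K4me3 in ASCs. The old QSC length was 0.941 times the young one.

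Of the 5830 bp by which ASCs exceeded young QSCs, 4269 bp lay at the main site. This site, chr17:29230184-29233052, was 2869 bp wide in young QSCs, 7138 bp in ASCs (chr17:29227156-29234293) and 2969 bp in old QSCs, with a score of 3100 in each. The ASC peak reached 3028 bp farther to the low side and 1241 bp farther to the high side. The low side is the upstream direction for a gene on the plus strand, but Cdkn1a has 2 listed starts. Whether the added stretch lies before the gene or between its starts was not settled, because the starts belong to another build. Only 105 of 32846 ASC H3K4me3 peaks, or 0.320%, were as wide. The site at the low edge of the window, chr17:29215252-29216366, was 1115 bp in young QSCs, 2675 bp in ASCs and 941 bp in old QSCs. Its scores of 75.6, 1155 and 89.1 were reached by 83.7%, 39.6% and 78.4% of those lists. The RefSeq order puts Trp53cor1 next on that side of Cdkn1a, and which gene this site belongs to was not settled. A 3rd peak, chr17:29235045-29236038 (994 bp, score 306), was called in ASCs alone. Both shared sites were at least 2-fold wider in ASCs, at 2.49 and 2.40 times the young QSC width, and 3.45% of all H3K4me3 sites called once in each of these lists were.

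H3K36me3 at Cdkn1a was weak in young QSCs and strong in ASCs. Young QSCs had 2 peaks with scores of 50.5 and 63.5, near the lowest score of 50, that covered 2269 bp together. ASCs had 1 peak of 7064 bp with a score of 2283, and 61 peaks, or 0.142% of that list, scored as high. The ASC length was 3.11 times that of young QSCs, against 2.41 over the whole lists. With peaks less than 1 kb apart joined, the ratio in the window was 2.43. Stretches as long as the window with at least as much H3K36me3 made up 4.22% in young QSCs and 4.29% in ASCs. By covered length the window thus stood nearly alike in both lists. The peak began 3604 bp after the start of the wide ASC H3K4me3 peak, overlapped it over 3534 bp and ended 3530 bp beyond it, so in the direction of the gene H3K36me3 followed H3K4me3. It also contained the peak called in ASCs alone. Among the 105 ASC H3K4me3 peaks as wide as that of Cdkn1a, 62 overlapped H3K36me3, whereas 7.70% of all ASC H3K4me3 peaks did. In young QSCs none of the 12 member H3K4me3 peaks met H3K36me3, beside 12.9% of all. No H3K27me3 was called at Cdkn1a in young QSCs or ASCs. The old QSC list had 1 peak at chr17:29222033-29222766 of 734 bp and score 57.1, between the H3K4me3 sites and overlapping neither. Of stretches as long as the window with H3K4me3, 21.2% also held H3K27me3 in young QSCs, 35.5% in ASCs and 39.4% in old QSCs.

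**Figure D3:**
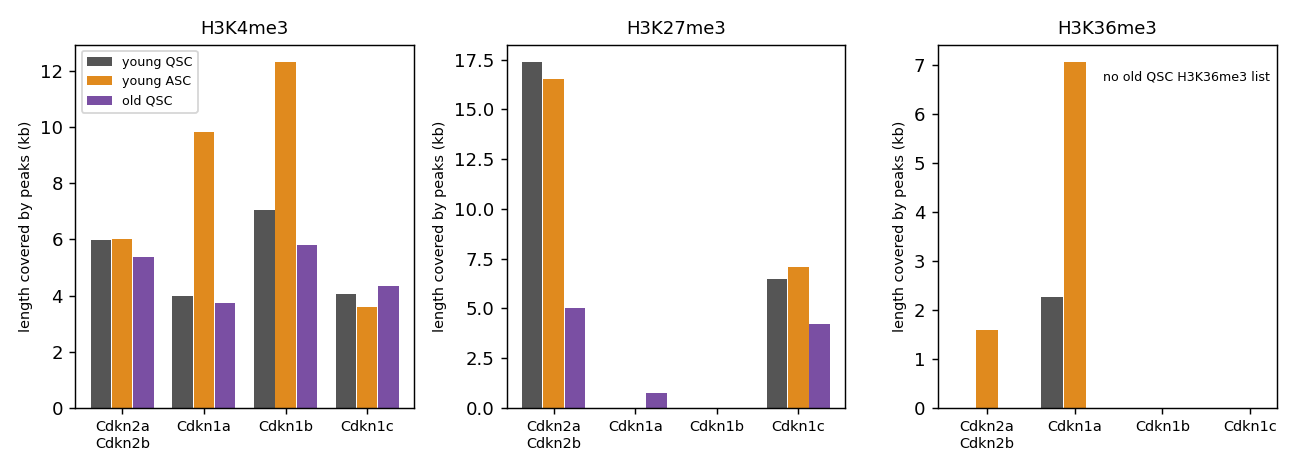
Length in kb covered by peaks of each mark (y axes differ) in each window, for young QSCs, young ASCs and old QSCs. No old QSC H3K36me3 library was analysed here. H3K4me3 bars of ASCs stand at 9.81 kb at Cdkn1a and 12.3 kb at Cdkn1b, and the old QSC H3K27me3 bar at Cdkn2a and Cdkn2b stands at 5.01 kb beside 17.4 kb in young QSCs.

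The window of Cdkn1b, the gene of p27, had the most H3K4me3 of the 4 windows in each cell state. No other mark was called in it, though old QSCs had no H3K36me3 list. H3K4me3 covered 7055 bp in young QSCs (3 peaks), 12328 bp in ASCs (7 peaks) and 5796 bp in old QSCs (2 peaks). The ASC length was 1.75 times and the old QSC length 0.822 times that of young QSCs. Few stretches of this length held as much, namely 0.268% in young QSCs, 0.0856% in ASCs and 0.553% in old QSCs. Neither H3K27me3 nor H3K36me3 was called in any list. Of stretches of this length with H3K4me3, 33.4% also held H3K36me3 in young QSCs and 37.1% in ASCs. H3K27me3 was held by 20.1% of them in young QSCs, 33.4% in ASCs and 37.5% in old QSCs, so its absence was the more common case.

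The H3K4me3 of Cdkn1b was made of 2 wide sites with a score of 3100 in all 3 states, beside smaller peaks. The site at chr6:134869383-134872628 was 3246 bp in young QSCs, 3616 bp in ASCs and 3098 bp in old QSCs. The site at chr6:134876457-134879611 was 3155 bp, 4494 bp and 2698 bp wide. The RefSeq table places the noncoding RNA gene Lockd directly after Cdkn1b, and which site belongs to which gene was not settled. A smaller site at chr6:134866501-134867154 was 654 bp in young QSCs and 1040 bp in ASCs and was not called in old QSCs. A further 4 peaks, of 398 to 1413 bp and scores from 59.2 to 492, were called in ASCs alone. With peaks less than 1 kb apart joined, young QSCs and ASCs each had 3 blocks, and the ASC length was 1.99 times that of young QSCs. Joining took the 4 peaks called in ASCs alone into neighbouring blocks, but none of the 4 overlapped young QSC H3K4me3. At a score of at least 100, and with lists trimmed to equal size, ASCs had 5 peaks and young QSCs 3.

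H3K4me3 was called in all 3 states at 10 sites, and the 5 without H3K27me3 in any state (70.2% of all such sites lacked it) were all wider in ASCs than in young QSCs, by 1.11 to 2.49 times. Of the 5 with H3K27me3 in at least 1 state, 2 were wider and 3 narrower, at 0.730 to 1.15 times. Of all H3K4me3 sites called once in each of the young lists, 61.6% were wider in ASCs. That share was not split by H3K27me3, so the contrast between member sites with and without it has no list-wide counterpart here. This is a description of 10 sites in the windows of 5 genes. Several sites share a window, and none was assigned to a gene. Over the 11 member sites called once in young QSCs and once in ASCs, 3 were at least 1.5-fold wider in ASCs and 0 at least 1.5-fold narrower, where the whole list had 13.5% and 6.69%. In old QSCs 0 of 10 member sites were at least 1.5-fold wider (4.18% of all), 0 at least 1.5-fold narrower (2.05%) and 5 of 10 were wider at all (66.1% of all).

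**Figure D4:**
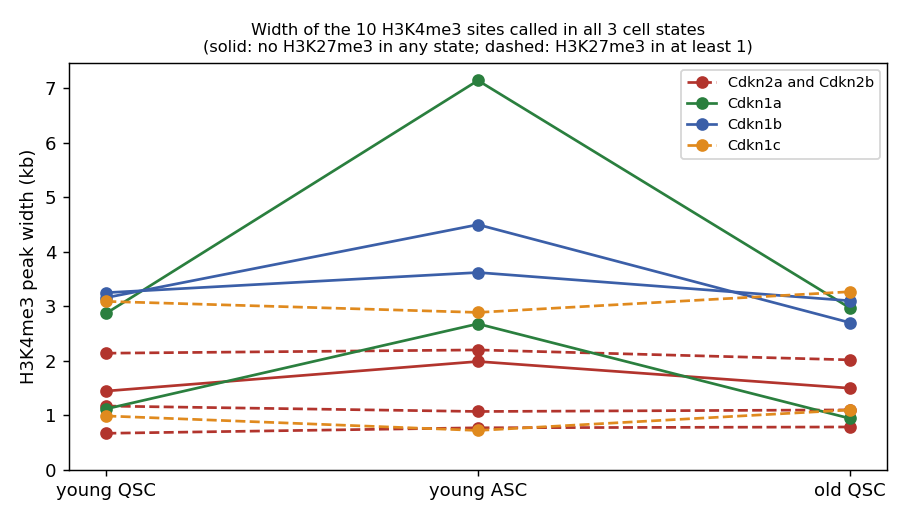
Width in kb (y axis) of the 10 H3K4me3 sites called in young QSCs, young ASCs and old QSCs (x axis), 1 line per site coloured by window, solid where no cell state had H3K27me3 and dashed where at least 1 had. The solid lines all stand higher in ASCs than in young QSCs, up to 7138 bp at Cdkn1a, and the dashed lines are nearly level.

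The share of member peaks found in 1 list without a counterpart in the other was below that of the whole list with the lists as deposited, over at most 16 peaks in any comparison. This did not hold throughout: with lists trimmed by score to equal size 5 of 11 young QSC H3K27me3 peaks had no ASC counterpart, beside 43.6% of that list, and 0 of 5 ASC peaks had no young QSC one, beside 50.4%. Of the member H3K4me3 peaks of ASCs, 5 of 16 had no young QSC peak under them (41.3% of all), and of young QSC peaks 1 of 12 had none in ASCs (21.4%). For H3K27me3, 6 of 16 ASC peaks had no young QSC counterpart (77.4%) and 2 of 11 young QSC peaks none in ASCs (25.7%). Both young QSC H3K36me3 peaks met the ASC one (40.8% of all did not), and 1 of 2 ASC H3K36me3 peaks had no young QSC counterpart (73.7%). Between ages, 5 of 11 young QSC H3K27me3 peaks had no old counterpart (68.2%) and 3 of 10 old peaks no young one (73.9%). All 10 old QSC H3K4me3 peaks overlapped a young one (19.5% of all did not), and 2 of 12 young peaks had no old one (19.5%). Among H3K27me3 sites called once in young and once in old QSCs, 3 of 4 members were at least 1.5-fold narrower in old QSCs, beside 50.8% of all, and none was wider (17.8%). Between young QSCs and ASCs, 0 of 6 such H3K27me3 sites were at least 1.5-fold wider (25.3%) and 1 was at least 1.5-fold narrower (12.0%).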

How the data were processed

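ChIP-seq was deposited as 8 peak lists, 1 per cell state and mark, and 3 input libraries had no list. Per the submitters' processing notes, reads were aligned with Bowtie to mm9. The deposited score of each peak follows the scale of MACS, whose peak names the lists carry, as -10 times the log10 of the p-value, from 50 (a p-value of 1e-05) to 3233, with many peaks tied at 3100. The versions, the number of reads and which input was used for each list are not given in the sources used here.

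Starts and ends were read as 0-based BED and written 1-based. A peak was a member if it overlapped a window by at least 1 bp, and overlaps between lists also needed 1 bp. A site was called changed in width from 1.5-fold, at sites where 1 peak of each list met. Covered length was clipped to the window, and consecutive stretches of equal length from position 1 to the last peak end gave the genome background. No test was run, as there was 1 library per list. The overlap code was tested on simulated data, where 800 of 800 planted overlaps among 2000 peaks were found. Python 3.11.15, numpy 2.4.6, scipy 1.17.1 and matplotlib 3.10.9 were used.

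RefSeq names and promoters belong to GRCm38.p6, so no peak was assigned to a transcription start, and the cell type markers and other cell cycle genes that were listed were not analysed here. Named genes were the 5 members, and neighbours were named by their order. The members and lists were chosen with earlier results of these data known.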

Additional observations from a re-analysis of the deposited data

How the results depend on the processing

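With 1 library per list, no replicate could be left out. No paired analysis was possible because no group had a replicate and no result came from a test. The alternatives were a score of at least 100, lists of each mark trimmed by score to equal size, an overlap over 50% of the shorter peak, joining of peaks less than 1 kb apart, and windows extended by 5 kb. Of the main values, 22 of 23, 23 of 24, 11 of 11, 24 of 24 and 24 of 24 stayed within 1.5 times, in that order. These were numbers of windows with a mark or with both marks, and ratios of covered length. The other values were peak counts, covered lengths and shares of whole lists. Of these, 56 of 82, 63 of 82, 39 of 50, 64 of 82 and 59 of 64 stayed. For shares, staying meant lying within the 95% interval of the main share. At a score of at least 100, 0 windows held young QSC H3K36me3, because the Cdkn1a peaks score lower, and the weak old QSC H3K27me3 peak at Cdkn1a is also lost. With lists of equal size, H3K27me3 in ASCs covered 0.581 times the young QSC length at Cdkn2a and Cdkn2b, beside 0.950, and the shares of H3K27me3 peaks without a counterpart between young QSCs and ASCs went from 25.7% to 43.6% (young QSCs) and from 77.4% to 50.4% (ASCs). Joining brought the Cdkn1b H3K4me3 peaks of ASCs from 7 to 3. Unknown depth limits every comparison of lengths between lists.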

Other observations

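Within 5 kb of the windows, the Cdkn1a and Cdkn1c windows had further peaks. Beyond the high end of the Cdkn1c window, toward Slc22a18, ASCs had an H3K27me3 peak of 796 bp (score 68.9) and old QSCs one of 966 bp (score 71.9), 4506 and 4404 bp from the limit, where young QSCs had none. Before the Cdkn1a window, on the side of the noncoding gene Trp53cor1, ASCs had an H3K36me3 peak of 842 bp and score 75.1, 2436 bp from the limit.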
